A study of Mus musculus with 12 samples.

Results

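The genes described here carry the names of nuclear-encoded subunits of complexes III to V of the mitochondrial respiratory system, with cytochrome c. A name does not show that each is a structural part of its complex. Atp5s and Cox7a2l, for example, were counted with complexes V and IV by name alone. They were chosen by name, as every protein-coding gene of the deposited table whose mouse symbol begins with Uqcr, Atp5 or Cox4 to Cox8, or is Cyc1 or Cycs. This gave 46 of 55357 identifiers: 9 of complex III, 1 of cytochrome c (Cycs), 18 of complex IV and 18 of complex V. Of these 46, 43 passed the filter on low counts and were tested. Cox7b2 had at most 4 counts in a library, and Cox8c and a second identifier named Atp5o (ENSMUSG00000116933) had 0 in every library. A count of 0 allows up to 3 counts in a library.

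Complex III (cytochrome bc1) takes electrons from ubiquinol and passes them to cytochrome c, a small soluble carrier. Complex IV (cytochrome c oxidase) passes them from cytochrome c to oxygen, and complex V (ATP synthase) makes ATP from the proton gradient that the chain builds. Each complex joins subunits of the nuclear genome with a few core subunits encoded by mitochondrial DNA, and heart muscle, which works without pause, is among the tissues richest in them.

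The series asked how loss of Cd163, a haemoglobin scavenger receptor of macrophages, bears on the heart under pressure overload. Poly(A) RNA was sequenced from heart tissue of male mice, wild-type C57BL/6J (WT) or Cd163-/- on the C57BL/6J background (KO). They were operated on at 8 weeks of age, either with the transverse aorta tied over a 27-gauge needle (transverse aortic constriction, TAC) or as a sham without the ligature. Each of the 4 groups had 3 libraries, numbered 1, 2 and 3 in sham and 1, 3 and 5 in TAC. The labels name no cell-type driver for the deletion, and no source used here gives the time from surgery to collection. The labels do not tie the libraries to named animals, so a p-value here weighs the spread among libraries.

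Total counts ran from 14150109 to 22602225 per library. Cd163 lay at 13.7 to 29.5 CPM (counts scaled to the size of the library) in the 6 WT libraries and at 3.14 to 4.60 CPM in the 6 KO libraries, so it went against no genotype label, and it is no check of the surgery label. The library of KO sham replicate 1 stood apart from its group: its rank correlation with the KO TAC libraries was 0.985 to 0.990, against 0.927 and 0.935 with the other KO sham libraries. With WT TAC replicates 1, 3 and 5 it was 0.965, 0.927 and 0.929. Its profile thus lay closer to KO TAC than to the group of its label, and whether labels or tissue samples were exchanged was not tested. Mitochondrial transcripts were 51.0% of its counts and 44.0 to 51.3% in KO TAC, against 24.8 to 36.9% in the other 8 libraries. The 8 cardiomyocyte markers summed to 26959 CPM in KO sham replicate 1 and 34309 to 37362 CPM in KO TAC, against 46395 to 57334 CPM elsewhere. The 4 atrial markers summed to 1832 CPM in that library and 323 to 1514 CPM in KO TAC, against 2.67 to 9.51 CPM in WT TAC. In KO sham replicates 2 and 3 they summed to 217 and 154 CPM. In WT sham they summed to 21.1, 901 and 72.2 CPM, with replicate 2 above KO TAC replicate 3. Skeletal muscle markers summed to at most 4.16 CPM, with Myh4 at 0 in every library. Results are therefore given with all 12 libraries and again without KO sham replicate 1. In bulk tissue, fewer cells of a type and less RNA per cell cannot be told apart.

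The promoter sequences of 4 complex IV and V genes are shown because these genes moved to opposite sides in the results: Atp5e and Atp5k stood higher, and Atp5g2 and Cox5a lower, in KO TAC hearts than in WT sham hearts. The letters are the 250 bases before the transcription start, 5′ to 3′ on the gene's own strand, from RefSeq on GRCm38.p6. Capitals mark matches to motifs of factors known for respiratory genes.
Atp5e, chr2:174464102-174464351, minus strand: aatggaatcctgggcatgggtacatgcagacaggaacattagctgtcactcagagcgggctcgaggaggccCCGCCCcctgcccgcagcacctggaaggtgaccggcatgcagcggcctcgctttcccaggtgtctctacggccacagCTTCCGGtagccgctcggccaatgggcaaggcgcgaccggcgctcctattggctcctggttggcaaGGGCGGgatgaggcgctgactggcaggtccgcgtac
Atp5k, chr5:108434400-108434649, minus strand: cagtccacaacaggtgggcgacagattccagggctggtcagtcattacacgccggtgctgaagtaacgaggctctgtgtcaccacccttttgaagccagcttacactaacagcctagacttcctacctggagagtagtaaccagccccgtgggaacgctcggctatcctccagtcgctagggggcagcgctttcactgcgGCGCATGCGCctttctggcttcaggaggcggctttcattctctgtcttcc
Atp5g2, chr15:102671048-102671297, minus strand: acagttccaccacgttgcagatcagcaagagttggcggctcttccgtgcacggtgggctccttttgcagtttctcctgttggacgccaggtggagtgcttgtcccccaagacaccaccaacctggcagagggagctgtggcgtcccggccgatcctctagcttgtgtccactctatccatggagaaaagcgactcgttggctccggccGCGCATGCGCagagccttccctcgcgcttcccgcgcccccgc
Cox5a, chr9:57520982-57521231, plus strand: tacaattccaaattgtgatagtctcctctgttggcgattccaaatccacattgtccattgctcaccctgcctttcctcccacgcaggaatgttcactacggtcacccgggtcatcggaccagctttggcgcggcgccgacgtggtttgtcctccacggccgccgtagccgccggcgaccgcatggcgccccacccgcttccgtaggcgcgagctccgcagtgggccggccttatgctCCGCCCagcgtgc

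Of the 45 member symbols, 34 had 37 promoters in the RefSeq table. Both strands were searched in the 250 bases before each start, and matches to different motifs may overlap. The NRF1 motif, which is GCGC, any 2 bases and GCGC again, was in 5 of the 37 and in 4.98% of all 32851 promoters of the table. The ETS motif CCGGAAG, read by GABP, was in 8 of the 37 and in 6.91% of all. The ERR motif AAGGTCA was in 2 and in 4.08% of all, the YY1 motif AAGATGGC in 1 and in 1.56%, and the SP1 motif GGGCGG in 11 and in 32.7%. The same 10 letters of an NRF1 match stood before Atp5k and before Atp5g2, which differed in direction. Such matches describe the letters of these windows.

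Read per kilobase of transcript in WT sham hearts, Atp5b, Cox6a2, Atp5g3 and Atp5a1 were the most abundant members. Atp5b, the beta subunit that carries the catalytic sites, had 2152 ± 130 CPM per kilobase (SD, n = 3), and Cox6a2, the heart and skeletal muscle isoform of a complex IV subunit, had 1634 ± 157. The c-ring gene Atp5g3 had 1571 ± 268 and the F1 alpha subunit Atp5a1 1386 ± 31.5 CPM per kilobase. Cox6a2 and Atp5g3 did not differ beyond their SD. Atp5b and Atp5g3 are named here after their values were seen. At the low end were Atp5s at 15.2 ± 0.395, Cox4i2 at 7.53 ± 1.65 and Cox6b2, a testis isoform, at 1.55 ± 0.334 CPM per kilobase. The 43 tested members and the 3 others together took 2.23 to 3.57% of all counts in the 8 libraries outside KO TAC and KO sham replicate 1, 1.77 to 2.13% in the KO TAC libraries and 1.52% in replicate 1 of KO sham. As a share of the counts from nuclear genes alone, they took 3.64 to 3.81% in KO TAC, 4.01 to 4.75% in WT TAC and 3.43 to 4.27% in WT sham. In KO sham the share was 3.11, 3.62 and 3.61% in replicates 1, 2 and 3, all under the KO TAC values.

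**Figure D1:**
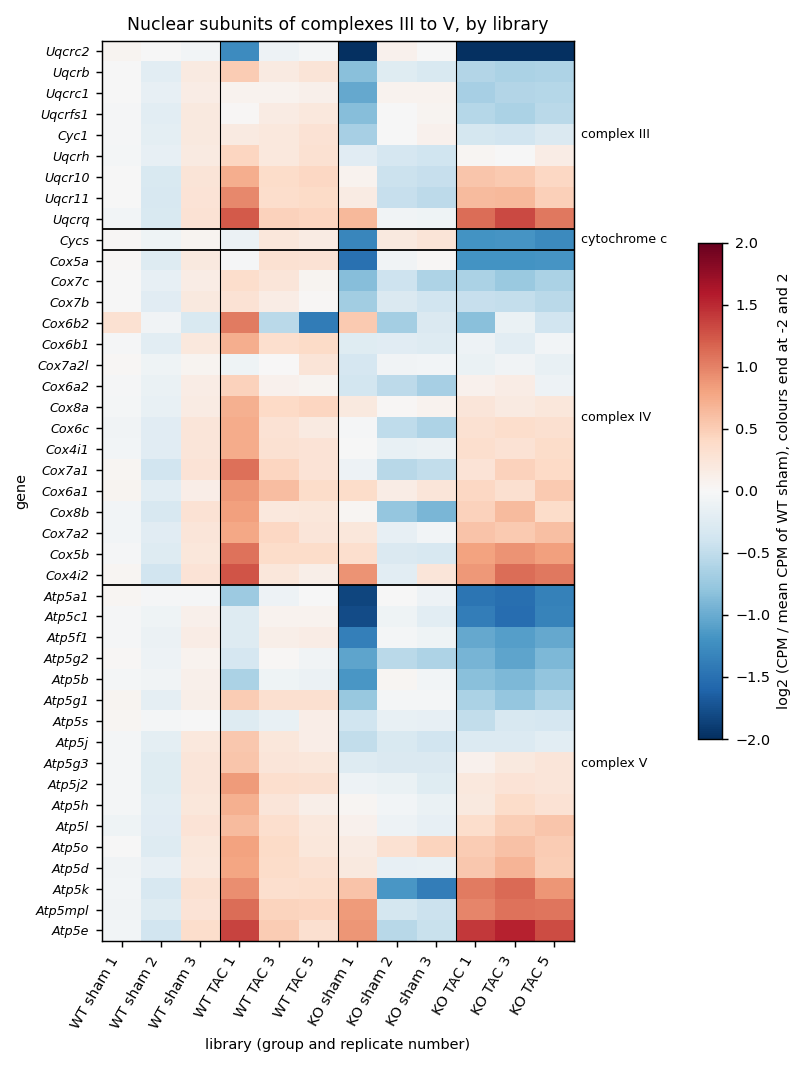
Each row is 1 of the 43 tested members, grouped by complex, and each column 1 of the 12 libraries in 4 groups; colour gives the log2 ratio of CPM to the WT sham mean. The KO TAC libraries and KO sham replicate 1 share some blue rows, with Uqcrc2 at 74.6 to 92.6 CPM against 574 to 616 CPM in WT sham, and Atp5e is red there. Other rows differ between them: Atp5g3 had 947 CPM in KO sham replicate 1 and 1195 to 1334 CPM in KO TAC, with a WT sham mean of 1129 CPM.

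After TAC, KO hearts had less RNA for 14 of the 43 members than WT hearts, and none rose. The 14 included the core protein Uqcrc2 of complex III, cytochrome c itself, the alpha and gamma subunits of the F1 head of ATP synthase, and the c-ring genes Atp5g1 and Atp5g2. Among all 15804 genes tested, 11.7% fell and 8.63% rose in the same comparison. By complex, 3 of 9 fell in complex III, Cycs fell, 4 of 16 fell in complex IV and 6 of 17 fell in complex V. The median log2 fold change of the 43 was −0.27, against −0.016 for all genes. CPM values carry TMM scaling, adjusted p-values are edgeR's quasi-likelihood test with Benjamini-Hochberg adjustment over all genes, and a call is an adjusted p under 0.05.

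In complex III the falls were in Uqcrc2, Uqcrb and Uqcrfs1. Uqcrc2 (ENSMUSG00000030884, chromosome 7), a core protein of the matrix arm, had 616, 594 and 574 CPM in WT sham and 248, 553 and 579 CPM in WT TAC hearts. It had 76.6, 631 and 593 CPM in KO sham and 92.6, 74.6 and 89.9 CPM in KO TAC hearts. The KO TAC libraries and KO sham replicate 1 were the lowest, WT TAC replicate 1 lay between, and the other 7 libraries were at or above 553 CPM. After TAC it was 5.37-fold lower in KO than in WT hearts, a log2 fold change of −2.42 ± 0.59 (SE, adjusted p = 0.0244, all 3 KO below all 3 WT libraries).

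Uqcrb, a small subunit near the quinone-binding site, had 591, 474 and 497 CPM in WT TAC and 277, 269 and 274 CPM in KO TAC hearts (log2 fold change −0.93 ± 0.20, adjusted p = 0.0198). Uqcrfs1, the Rieske iron-sulfur protein that hands electrons on, had 577, 634 and 654 CPM in WT TAC and 381, 364 and 390 CPM in KO TAC hearts (−0.72 ± 0.23, adjusted p = 0.0485). In both genes the TAC groups did not overlap. A pair of partners in the same complex did not pass: Cyc1, the cytochrome c1 that meets cytochrome c, at −0.57 ± 0.21 (adjusted p = 0.0673) and the other core protein Uqcrc1 at −0.69 ± 0.26 (adjusted p = 0.0729). The smallest subunits stood near or above 0, with Uqcr10 at −0.015, Uqcr11 at −0.0040 and Uqcrq at 0.41 on the log2 scale.

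Cycs (ENSMUSG00000063694, chromosome 6), the somatic cytochrome c, had 505, 465 and 515 CPM in WT sham and 457, 576 and 555 CPM in WT TAC hearts. It had 200, 565 and 593 CPM in KO sham and 215, 219 and 205 CPM in KO TAC hearts. The 3 KO TAC libraries and KO sham replicate 1 were at or below 219 CPM and all others at or above 457 CPM. After TAC it was 2.48-fold lower in KO than in WT hearts (−1.31 ± 0.32, adjusted p = 0.0249).

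In complex IV, Cox5a, Cox7c, Cox7b and Cox6b1 fell. Cox5a (ENSMUSG00000000088, chromosome 9), which sits on the matrix side, had 262, 215 and 296 CPM in WT sham, 253, 319 and 314 in WT TAC, 91.5, 244 and 261 in KO sham, and 112, 112 and 114 CPM in KO TAC hearts. Its KO TAC values were close together and under every value outside KO sham replicate 1 (−1.39 ± 0.32, adjusted p = 0.0223). Cox7c fell by 0.89 ± 0.18 on the log2 scale (adjusted p = 0.0176), with 300 to 322 CPM in KO TAC against 522 to 637 CPM in WT TAC hearts. Cox7b fell by 0.65 ± 0.18 (adjusted p = 0.0336) and Cox6b1, which faces cytochrome c, by 0.62 ± 0.18 (adjusted p = 0.0368). Cox5b, the zinc-binding neighbour of Cox5a, stood at 0.19 ± 0.25 (adjusted p = 0.580), and Cox4i1, the main isoform of subunit 4, at −0.13 ± 0.20 (adjusted p = 0.649).

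In complex V, the members that fell belong to the catalytic head, the stator and the c-ring, but not all members of these parts fell. Of the head, Atp5b, Atp5d and Atp5e did not pass. Mean CPM in WT TAC and KO TAC hearts was 3441 and 2303 for Atp5b, 481 and 507 for Atp5d, and 387 and 594 for Atp5e. Atp5a1 (ENSMUSG00000025428), the F1 alpha subunit, had 3516, 3381 and 3381 CPM in WT sham, 2082, 3181 and 3420 in WT TAC, 955, 3417 and 3176 in KO sham, and 1242, 1208 and 1336 CPM in KO TAC hearts (−1.20 ± 0.38, adjusted p = 0.0472). Atp5c1 (ENSMUSG00000025781, chromosome 2), the gamma subunit that forms the rotating shaft, had 890, 1113 and 1115 CPM in WT TAC and 406, 368 and 421 CPM in KO TAC hearts (−1.38 ± 0.34, adjusted p = 0.0254). For both genes the TAC groups were separate, and KO sham replicate 1, with 955 and 307 CPM, lay below every other library.

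Atp5f1, the b subunit of the peripheral stalk, had 722, 941 and 961 CPM in WT TAC and 428, 404 and 429 CPM in KO TAC hearts (−1.06 ± 0.30, adjusted p = 0.0340). Atp5j, the F6 subunit of the same stalk, fell by 0.56 ± 0.18 on the log2 scale (adjusted p = 0.0467). The c-ring subunit is encoded by Atp5g1, Atp5g2 and Atp5g3, whose coding sequences are 72.6 to 78.7% identical over the aligned bases; no source used here says how reads shared by such copies were counted. Atp5g1 had 740, 649 and 650 CPM in WT TAC and 336, 305 and 338 CPM in KO TAC hearts (−1.06 ± 0.21, adjusted p = 0.0176). Atp5g2 had 114, 147 and 137 CPM in WT TAC and 75.9, 69.2 and 77.1 CPM in KO TAC hearts (−0.84 ± 0.17, adjusted p = 0.0179). Atp5g3, the most abundant of these c-ring genes and named after its values were seen, stood at −0.18 ± 0.19 (adjusted p = 0.492). Within a library the log2 ratio of Atp5g1 to Atp5g3 was −1.83 to −2.08 in KO TAC and −1.02 to −1.16 in WT TAC hearts.

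**Figure D2:**
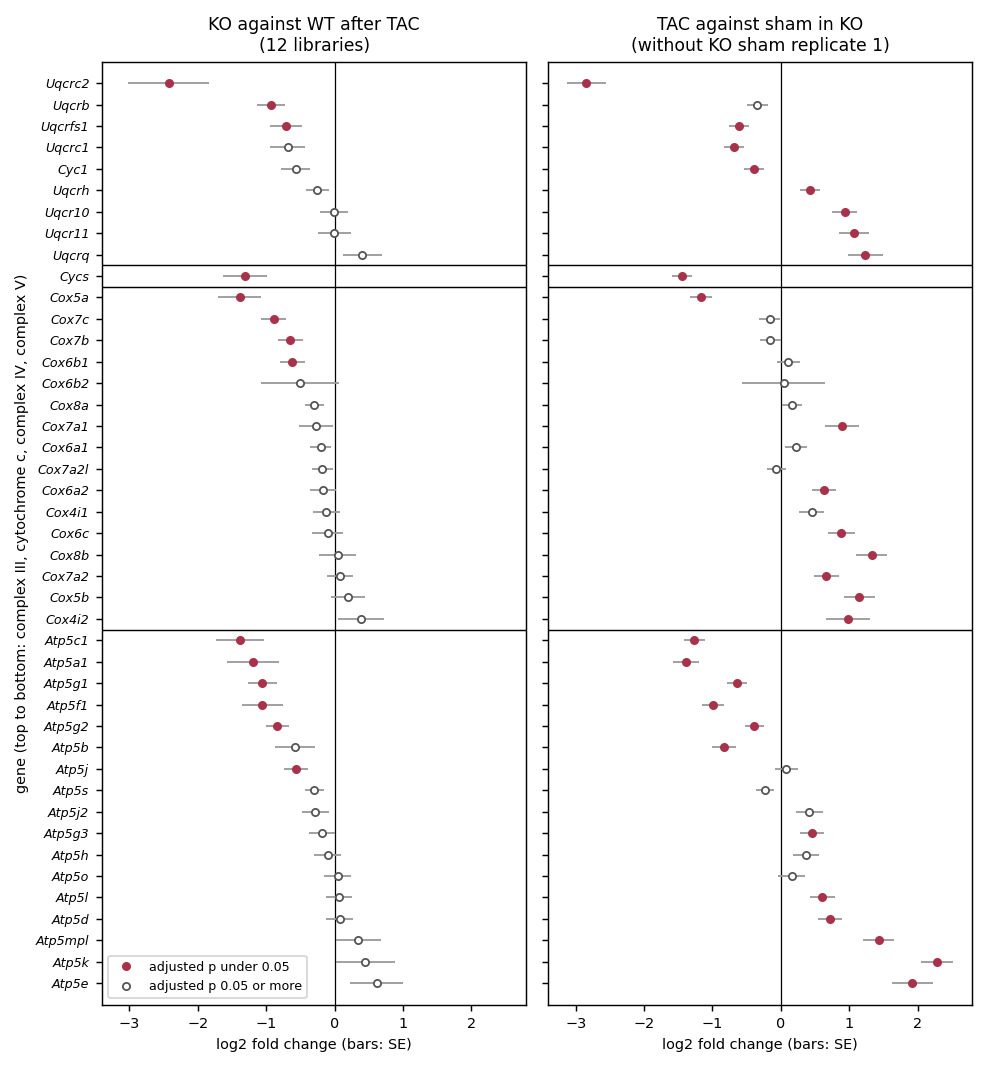
Points are log2 fold changes of the 43 tested members with SE bars, filled where the adjusted p was under 0.05. The left panel compares KO with WT after TAC in 12 libraries, with 14 members lower, and the right panel TAC with sham in KO without KO sham replicate 1, with 17 higher and 12 lower; the panels share the KO TAC libraries.

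The count of 14 rested on single libraries of the compared groups. With KO TAC replicate 1, 3 or 5 left out the count was 0 (0.357%, 0.265% and 2.7% of all genes in either direction), as it was without WT TAC replicate 3 (0.523%), and with WT TAC replicate 5 left out it was 1 (1.02%). Without WT TAC replicate 1, 12 members fell and Cox4i2 rose by 0.86 (adjusted p = 0.0471), where 18% of all genes fell and 15.6% rose. Leaving out WT sham replicate 1 gave 8, all lower (10.6% of all genes in either direction, with 987 of 16208 lower and 729 higher). Leaving out WT sham replicate 2 gave 9, all lower (11.7% in either direction, with 1081 of 16208 lower and 822 higher). Over these fits the log2 fold change of Uqcrc2 ran from −2.71 to −2.23 and that of Cycs from −1.40 to −1.25, with an adjusted p of at most 0.0970 for Cycs. Without KO sham replicate 1, which is in neither TAC group and enters through the spread shared by the fit, 17 members fell and none rose, against 22.1% fallen and 18.5% risen among all genes. Uqcrc1, Cyc1 and Atp5b were the added calls, and the adjusted p of Uqcrc2 was then 0.000102 and that of Cycs 8.09e-05. With all libraries, DESeq2 called 16, all lower, with no adjusted p for 1 member (28.3% of all genes in either direction), and at an unadjusted p under 0.05 edgeR had 17 (40.8%). On CPM, 21 members were lower in every KO TAC than in every WT TAC library and 0 were higher, where 24.3% and 22.7% of all genes were.

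Cell-type markers moved with these falls. In the same comparison 4 of the 8 cardiomyocyte markers fell and 4 of the 4 atrial markers rose. The 3 tested of 4 adipocyte markers also rose, with the 4 summing to 7.08 to 8.69 CPM in KO TAC and 0.0492 to 0.538 CPM in WT TAC hearts, and so did 1 of 5 fibroblast markers. The 1 tested brown adipocyte marker and 1 of 4 macrophage markers fell, and none of the endothelial, erythroid and skeletal muscle markers tested passed. The part of these markers in the members' falls was not tested. Single libraries can be read beside them. WT TAC replicate 1 had Uqcrc2 at 248 CPM with cardiomyocyte markers summing to 53568 CPM, within the WT range, atrial markers at 3.54 CPM and the lowest mitochondrial share, 24.8%. WT sham replicate 2 had Uqcrc2 at 594 CPM with atrial markers at 901 CPM. In the other direction, KO sham replicate 1 had Uqcrc2 at 76.6 CPM with cardiomyocyte markers at 26959 CPM and atrial markers at 1832 CPM. The KO TAC libraries had Uqcrc2 at 74.6 to 92.6 CPM with cardiomyocyte markers at 34309 to 37362 CPM. Whether cell composition had a part in any of these was not tested.

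TAC in KO hearts gave calls in both directions once KO sham replicate 1 was left out, and none with it. With all 12 libraries 0 of 43 passed (0% of all genes), 22 had an unadjusted p under 0.05 (30.9% of all genes), and DESeq2 called 18, 16 higher and 2 lower (12.4% of all genes in either direction). Without KO sham replicate 1, 17 rose and 12 fell, where 22.4% of all genes rose and 25.2% fell. By complex, 4 rose and 4 fell of the 9 of complex III, Cycs fell, 7 rose and 1 fell of 16 in complex IV, and 6 rose and 6 fell of 17 in complex V. The 2 remaining KO sham libraries carry these calls. The replicate was left out because its profile was close to KO TAC, and this by itself widens the contrast. The calls and adjusted p without it are therefore no separate support for an effect of TAC. In the same fit 5 of the 8 cardiomyocyte markers fell and 1 rose, 0 of the 4 atrial markers passed, and 1 marker each of skeletal muscle, adipocytes, fibroblasts and erythroid cells rose and 1 each of endothelium and macrophages fell. Their part in the members' calls was not tested.

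Atp5k and Atp5e had the largest rises. Atp5k (ENSMUSG00000050856, chromosome 5), the e subunit at the dimer interface of ATP synthase, had 273, 82.2 and 70.1 CPM in KO sham and 376, 402 and 338 CPM in KO TAC hearts. KO sham replicate 1 lay between the other KO sham libraries and KO TAC, and the groups did not overlap. Without that replicate Atp5k rose 4.86-fold (2.28 ± 0.24, adjusted p = 7.99e-05), and with it the value was 1.39 ± 0.44 (adjusted p = 0.103). The Atp5k row may share reads with its pseudogene Atp5k-ps2, which had 1965 counts over the 12 libraries. Atp5e (ENSMUSG00000016252, chromosome 2), the F1 epsilon subunit, had 408, 150 and 162 CPM in KO sham and 590, 647 and 545 CPM in KO TAC hearts. Atp5e rose 3.79-fold without KO sham replicate 1 (1.92 ± 0.30, adjusted p = 0.000477), and the value with it was 1.31 ± 0.39 (adjusted p = 0.103).

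Uqcrq, a small subunit of the membrane arm of complex III, had 504, 305 and 303 CPM in KO sham and 693, 796 and 669 CPM in KO TAC hearts. KO sham replicate 1 was again the highest of its group, and the groups did not overlap. It rose by 1.24 ± 0.25 on the log2 scale without KO sham replicate 1 (adjusted p = 0.00203). In the same fit Uqcr11 rose by 1.07, Uqcr10 by 0.93 and Uqcrh, the hinge protein, by 0.42. In complex IV, Cox8b rose by 1.33 ± 0.23 (adjusted p = 0.000809), Cox5b by 1.14, Cox4i2 by 0.98, Cox7a1 by 0.89, Cox6c by 0.89, Cox7a2 by 0.66 and Cox6a2 by 0.63. In complex V, Atp5mpl, a small membrane protein of the synthase, rose by 1.43 ± 0.23 (adjusted p = 0.000560), the F1 delta subunit Atp5d by 0.72, Atp5l by 0.60 and Atp5g3 by 0.45.

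The members that fell for TAC against sham in KO, without KO sham replicate 1, were led by Uqcrc2 and Cycs. This comparison shares its KO TAC libraries with the one between genotypes. With all libraries 0 of 43 passed, and Cycs stood at −1.09 (adjusted p = 0.103). Without KO sham replicate 1, Uqcrc2 fell 7.17-fold (−2.84 ± 0.28, adjusted p = 5.63e-05) and Cycs by 1.45 ± 0.14 on the log2 scale (adjusted p = 6.66e-05). In that fit Atp5a1 fell by 1.39 ± 0.19 (0.000250), Atp5c1 by 1.27 ± 0.15 (0.000133) and Cox5a by 1.17 ± 0.16 (0.000269), where the values in brackets are adjusted p. Smaller falls were those of Atp5f1 at −0.99, Atp5b at −0.84, Uqcrc1 at −0.69, Atp5g1 at −0.64, Uqcrfs1 at −0.61, Atp5g2 at −0.39 and Cyc1 at −0.39. On CPM with all libraries, 22 members were higher in every KO TAC than in every KO sham library and 0 lower (11.6% and 10.8% of all genes). Without KO sham replicate 1 these were 25 and 17 (35.9% and 37.0%).

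Subunits of the same complex were also set against each other within each library, since a ratio of 2 genes is free of the scaling. The log2 ratio of Uqcrc2 to Uqcrq was 0.55 to 1.20 in WT sham, 0.97 and 1.05 in KO sham replicates 3 and 2, and 0.32 and 0.42 in WT TAC replicates 3 and 5. It was −1.61 in WT TAC replicate 1, −2.72 in KO sham replicate 1 and −3.42 to −2.90 in KO TAC. The log2 ratio of Cox5a to Cox5b was −0.98 to −0.90 in WT sham, −0.73 and −0.61 in KO sham replicates 2 and 3, −2.06 in WT TAC replicate 1, −2.77 in KO sham replicate 1 and −3.06 to −2.94 in KO TAC. That of Atp5a1 to Atp5e was 3.58 to 4.31 in WT sham and 0.90 to 1.29 in KO TAC, with WT TAC replicate 1 at 1.88 and KO sham replicate 1 at 1.23. That of Atp5c1 to Atp5d was 1.53 to 1.72 in WT sham and −0.57 to −0.19 in KO TAC, with WT TAC replicate 1 at 0.60 and KO sham replicate 1 at −0.34. In each of these ratios KO sham replicate 1 lay nearer to the KO TAC values than to the other KO sham libraries, and WT TAC replicate 1 lay between.

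**Figure D3:**
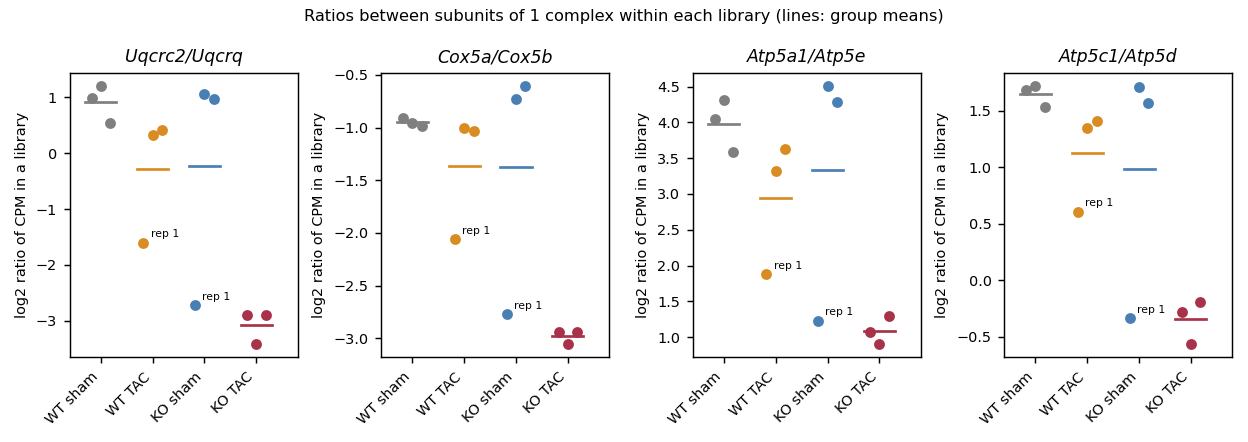
Points are the log2 ratio of CPM between subunits of the same complex in each of the 12 libraries, lines are group means, and replicate 1 of WT TAC and of KO sham are marked. For Uqcrc2 over Uqcrq the KO TAC libraries sit between −3.42 and −2.90 and the WT sham libraries between 0.55 and 1.20.

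Ratios between other pairs moved by different amounts. The core proteins Uqcrc1 and Uqcrc2 parted, with a log2 ratio of 0.33 to 0.70 in WT sham and 2.50 to 2.91 in KO TAC, while alpha and beta of the F1 head, Atp5a1 and Atp5b, stood at −0.38 to −0.20 and −0.89 to −0.84. Cycs and its docking partner Cyc1 stood at −0.11 to 0.12 in WT sham and at −0.96 to −0.77 in KO TAC. With 3 libraries a group, an exact test of any such ratio cannot give a two-sided p under 0.1.

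Fold changes of the members went with the length of their coding sequences, in a direction that differed between comparisons. Of the 8 tested members with 700 or more coding bases, 0 had a positive log2 fold change for TAC in KO without KO sham replicate 1, with a median of −0.91. Of the 18 with under 300 coding bases 16 were positive, with a median of 0.78. Among all protein-coding genes the medians were 0.0045 over 11164 genes of 700 or more bases (50.3% positive) and 0.31 over 292 genes under 300 (61.3% positive). With all libraries 0 of the 8 were positive (median −0.60) and 15 of the 18 (median 0.62), where 48.4% and 61.2% of all protein-coding genes of these lengths were. Across the 43 members the rank correlation of coding length with the log2 fold change for TAC in KO was −0.66 without KO sham replicate 1, against 0.03 across 13645 protein-coding genes, and it was −0.44 over the 35 members under 700 bases. With all libraries it was −0.65 across the 43 members. For KO against WT after TAC it was −0.45 across members with all libraries and −0.17 over the 35 shorter ones, against 0.22 across 13482 genes. For TAC in WT it was −0.60 and −0.35 over the shorter ones, against −0.20. Between the genotypes after sham surgery the sign was the opposite without KO sham replicate 1, at 0.64 across the 43 members and 0.55 over the shorter ones, against 0.0855 across all genes. With all libraries it was −0.061 and 0.18. These are correlations across genes that share the same libraries and are given as descriptions. Across the 43 members transcript length gave −0.67 for TAC in KO without KO sham replicate 1, −0.48 for KO against WT after TAC and −0.56 for TAC in WT. For KO against WT after sham without KO sham replicate 1 it gave 0.66.

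**Figure D4:**
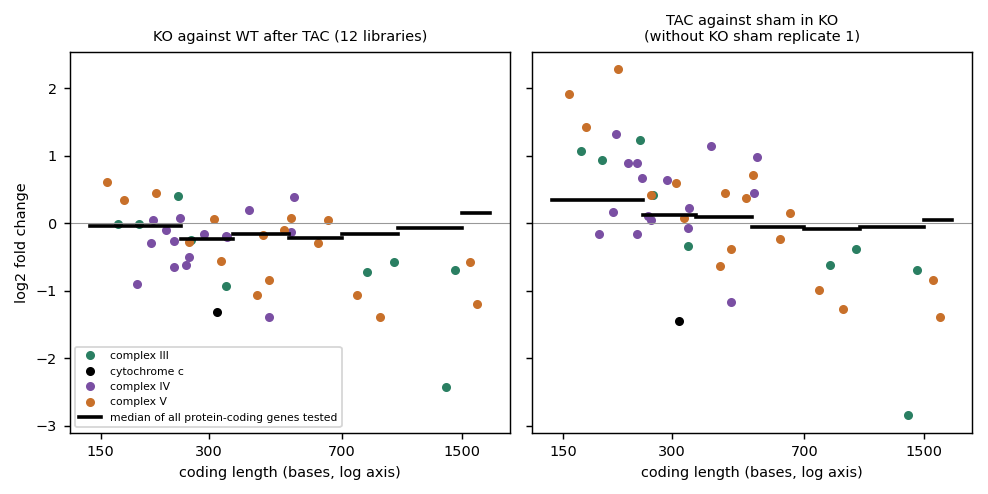
Each point is a tested member, with its coding length on a log axis and its log2 fold change, coloured by complex; black bars are medians of all protein-coding genes tested in length classes. In both panels the 8 members of 700 or more coding bases lie below 0.

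TAC in WT hearts gave no call among the members with all libraries. Of the 43, 0 passed (0.0316% of all genes) and 13 had an unadjusted p under 0.05 (16.2% of all genes). DESeq2 called 3, all higher (2.93% of all genes in either direction, with 238 of 15921 higher and 228 lower). Of the log2 fold changes 37 were positive, with a median of 0.39 against 0.013 over all genes. On CPM 15 members were higher in every WT TAC than in every WT sham library and 1, Atp5b, was lower (13.4% and 13.7% of all genes). Without KO sham replicate 1, Cox6a1 and Cox8a rose (3.4% of all genes rose). Cox6a1, the ubiquitous partner of Cox6a2, had 45.5, 37.7 and 48.1 CPM in WT sham and 79.7, 67.2 and 56.3 CPM in WT TAC hearts (0.63 ± 0.15, adjusted p = 0.0296). Cox8a, the ubiquitous partner of Cox8b, had 63.8, 59.0 and 73.0 CPM in WT sham and 106, 85.9 and 87.6 CPM in WT TAC hearts (0.51 ± 0.13, adjusted p = 0.0364). WT TAC replicate 1 was the highest of its group in both genes.

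Between the genotypes after sham surgery, 0 of 43 passed with all libraries (0.00633% of all genes) and 5 had an unadjusted p under 0.05 (13.5%). DESeq2 called 2, both lower (1.36% of all genes in either direction, with 70 of 14727 lower and 130 higher). The median log2 fold change was −0.24 with 35 of 43 negative, against 0.0070 over all genes, and −0.15 without KO sham replicate 1. Without that library Atp5k fell (0.161% of all genes fell), from 177, 147 and 226 CPM in WT sham to 82.2 and 70.1 CPM in the 2 KO sham libraries left (−1.27 ± 0.23, adjusted p = 0.0449). The library left out had Atp5k at 273 CPM, above every WT sham library. It was left out for its closeness to KO TAC, so this call too is no separate support. With all libraries 10 members were lower in every KO sham than in every WT sham library and Cox6a1 was higher (10.4% and 12.2% of all genes). The 10 were Atp5g2, Atp5g3, Atp5j, Atp5s, Cox6a2, Cox6b1, Cox7b, Cox7c, Uqcrb and Uqcrh. Atp5g2 had 146, 134 and 152 CPM in WT sham and 69.5, 99.1 and 93.8 CPM in KO sham hearts (−0.72 ± 0.17, adjusted p = 0.220).

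The test of whether TAC acted differently in the genotypes, given by the KO minus WT difference of the TAC effects, called 0 of 43 with all libraries (0% of all genes), with 4 at an unadjusted p under 0.05 (9.19%) and 0 in DESeq2 (0.473%). Without KO sham replicate 1, Atp5k rose by 1.71 ± 0.30 (adjusted p = 0.00675) and 9 members fell, where 4.66% of all genes rose and 7.45% fell. The largest of these differences were −2.47 ± 0.37 for Uqcrc2 (adjusted p = 0.00382), −1.54 ± 0.20 for Cycs (0.00203), −1.36 ± 0.22 for Cox5a (0.00488) and −1.24 ± 0.21 for Atp5c1 (0.00564), with the adjusted p in brackets. Atp5a1, Atp5g1, Atp5f1, Uqcrc1 and Uqcrfs1 made up the rest. KO sham replicate 1 was left out for its closeness to KO TAC, so these calls too are no separate support.

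WT TAC replicate 1 was the other library that stood apart from its group. Leaving it out as well gave more calls among the members in 4 of the 5 comparisons, and the same count for TAC in WT. The library was picked after its values, those of members included, had been seen. Its ratios between members lay toward KO TAC, so leaving it out widens contrasts by choice. The added calls are therefore no separate support. For KO against WT after TAC 18 fell and 6 rose (27.7% and 26.1% of all genes). The 6 were Atp5e at 1.01, Cox4i2 at 0.85, Uqcrq at 0.72, Atp5k at 0.68, Atp5mpl at 0.62 and Cox5b at 0.48 on the log2 scale. For TAC in KO 20 rose and 13 fell (26.8% and 28.7%), for the interaction 11 rose and 12 fell (15.9% and 20.2%), and for TAC in WT Cox6a1 and Cox8a rose (3.39%). For KO against WT after sham 4 fell (1% of all genes): Atp5k at −1.25, Cox8b at −0.83, Cox6a2 at −0.58 and Atp5g2 at −0.56.

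For 3 of the complex IV subunits striated muscle has an isoform of its own beside the one found in most tissues. The openings of 2 such pairs are shown because reads of the isoforms can be told apart only where the letters differ. The first 90 coding bases are from GENCODE vM21 transcripts, with the start codon in capitals.
Cox6a2: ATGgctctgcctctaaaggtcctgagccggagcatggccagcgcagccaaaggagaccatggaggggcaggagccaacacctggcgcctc
Cox6a1: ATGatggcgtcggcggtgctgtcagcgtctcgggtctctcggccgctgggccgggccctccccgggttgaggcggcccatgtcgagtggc
Cox8b: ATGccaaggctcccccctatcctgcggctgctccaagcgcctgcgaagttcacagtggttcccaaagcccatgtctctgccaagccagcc
Cox8a: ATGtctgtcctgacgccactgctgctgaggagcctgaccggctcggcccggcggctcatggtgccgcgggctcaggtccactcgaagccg

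The whole coding sequences of Cox6a2 and Cox6a1 were 66.6% identical over 287 aligned bases, those of Cox8b and Cox8a 68.1% over 182, and those of Cox7a1 and Cox7a2 67.4% over 230. The log2 ratio of Cox6a2 to Cox6a1 was 4.58, 4.75 and 4.67 in WT sham and 3.93, 3.99 and 3.76 in KO sham hearts. It was 4.27, 4.14 and 4.35 in WT TAC and 4.34, 4.49 and 4.03 in KO TAC hearts. The sham groups did not overlap, and the TAC groups did. The log2 ratio of Cox7a1 to Cox7a2 was 0.81 to 1.07 in WT sham, 1.00 to 1.31 in WT TAC, 0.55 to 0.65 in KO sham and 0.68 to 0.93 in KO TAC hearts, so that KO lay below WT after both operations. The log2 ratio of Cox8b to Cox8a was 1.93 to 2.23 in WT sham, 1.90 to 2.21 in WT TAC and 2.24 to 2.55 in KO TAC hearts. In KO sham it was 1.93 in replicate 1 and 1.30 and 1.11 in replicates 2 and 3. Cox4i2, an isoform linked to oxygen supply, remained minor at −7.64 to −6.56 against Cox4i1 over the 12 libraries, and Cox6b2 at −10.83 to −8.29 against Cox6b1, with 6 to 36 counts a library.

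**Figure D5:**
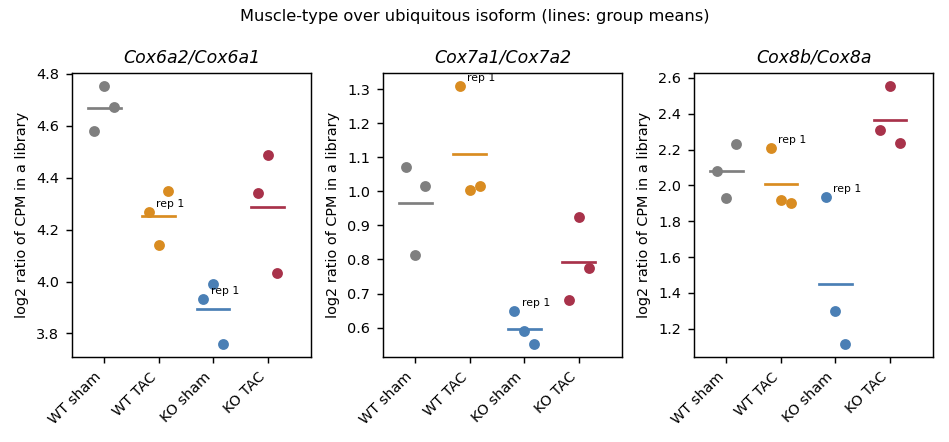
Points are the log2 ratio of CPM of the muscle-type over the ubiquitous isoform in each of the 12 libraries, and lines are group means. KO sham libraries sit lowest for Cox6a2 over Cox6a1, at 3.76 to 3.99 against 4.58 to 4.75 in WT sham.

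Of the 6 partner subunits encoded by mitochondrial DNA (mt-Cytb of complex III, mt-Co1, mt-Co2 and mt-Co3 of complex IV, mt-Atp6 and mt-Atp8 of complex V), mt-Co1 rose in KO against WT after TAC (1.05 ± 0.34, adjusted p = 0.0480) and the other 5 did not pass (8.63% of all genes rose). The log2 fold changes of the 6 ran from 0.36 to 1.07, with a median of 0.83. The mt-Co1 row had 46763, 93762 and 107481 CPM in WT TAC and 191616, 176765 and 144386 CPM in KO TAC hearts. Without KO sham replicate 1, 4 of the 6 rose (18.5% of all genes rose), and for TAC in KO 6 of 6 rose, with a median of 1.05 (22.4% of all genes rose). In KO sham replicate 1 mt-Co1 stood at 180470 CPM, against 101916 and 98575 CPM in the other KO sham libraries.

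Assembly factors, the proteins that build these complexes and are not part of them, were measured beside them. Of 31 listed genes 29 were tested, and in KO against WT after TAC 14 fell and 0 rose (11.7% and 8.63% of all genes), with a median of −0.64. With KO sham replicate 1 left out, 23 fell and 0 rose (22.1% and 18.5% of all genes). Atpaf1, which brings the F1 head together, had 17.0, 36.6 and 32.0 CPM in WT TAC and 8.21, 9.70 and 8.00 CPM in KO TAC hearts (−1.72 ± 0.46, adjusted p = 0.0293). Tmem70, which helps to form the c-ring, fell by 1.04 ± 0.27 on the log2 scale (adjusted p = 0.0290), and Bcs1l and Lyrm7, which insert the Rieske protein, by 0.89 ± 0.22 (0.0246) and 1.16 ± 0.27 (0.0233), with the adjusted p in brackets. For TAC in KO 0 of the 29 passed with all libraries, and with KO sham replicate 1 left out 14 fell and 4 rose (25.2% and 22.4% of all genes). Among 4 further proteins of complex IV, Higd2a fell in KO against WT after TAC (−0.95 ± 0.24, adjusted p = 0.0255). Usmg5 and Atpif1 are ATP synthase genes that newer nomenclature names with Atp5 and that the annotation used here does not. Usmg5 had 393, 341 and 325 CPM in WT TAC and 192, 179 and 185 CPM in KO TAC hearts (−0.93 ± 0.17, adjusted p = 0.0165), and Atpif1, the inhibitor of ATP hydrolysis by the synthase, stood at 0.02 ± 0.24 (adjusted p = 0.947).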

How the data were processed

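Poly(A) RNA of 12 mouse heart samples was read as 150 bp pairs. The authors deposited whole-number counts per Ensembl gene identifier for the 12 samples, not normalized. The submitters' processing notes name HISAT2 as a tool. For the counting program, genome build, annotation, use of strand and treatment of shared reads, nothing is given in the sources used. Symbols, coding lengths and transcripts came from GENCODE vM21, which matched 52081 of 55357 identifiers, and may differ from the annotation the authors used.

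These were analysed in R 4.3.3 with edgeR 4.0.16. After TMM scaling and filterByExpr, 15804 genes remained. A robust quasi-likelihood model held 1 coefficient per group, which left 8 residual degrees of freedom, and p-values were adjusted over all genes by Benjamini-Hochberg at a threshold of 0.05. The 5 comparisons were TAC against sham in WT and in KO, KO against WT after sham and after TAC, and the interaction. The procedure was checked on simulated counts. Lengths are medians over principal transcripts.

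Members, lists and tests were chosen with earlier results of these data known. Named members are those called with 12 libraries, up to 4 per comparison and complex with the smallest p with 12 libraries and up to 4 without KO sham replicate 1, the isoform pairs, Cyc1, Cycs and members under the filter. Alternatives were DESeq2 1.42.0, its size factors in edgeR, library totals, scaling on nuclear genes only, no filter, a mean of at least 1 CPM, a fit that was not robust, a block for the replicate number, only the compared groups, and libraries left out. Coding length was replaced by transcript length after the data were seen. Depth was 14150109 to 22602225 counts per library, and floors cover counting error only.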

Additional observations from a re-analysis of the deposited data

How the results depend on the processing

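For KO against WT after TAC, where 14 members fell, 13 fell with DESeq2 size factors in edgeR, 15 with library totals, 14 with scaling on nuclear genes only and 16 in DESeq2. The count was 9 without the low-count filter, 0 to 17 with 1 library left out, and 24 (18 fell, 6 rose) with replicate 1 of both KO sham and WT TAC left out. For TAC in KO, with 0 calls, it was 3 without the filter, 18 in DESeq2, 0 to 29 with 1 library left out and 33 without both. For TAC in WT, with 0 calls, it was 3 in DESeq2, 0 to 2 with 1 library left out and 2 without both. For KO against WT after sham, with 0 calls, it was 2 in DESeq2, 0 to 1 with 1 library left out and 4 without both. For the interaction, with 0 calls, it was 0 to 10 with 1 library left out and 23 without both. With 1 library left out, the last 4 comparisons had calls only without KO sham replicate 1. The cause of these differences was not tested. No named member that was called changed direction under the alternatives run. Library totals without TMM moved the median log2 fold change of all genes to −0.24 for KO against WT after TAC, −0.19 for TAC in KO and −0.40 for the interaction.

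With the replicate number as a block, 9 members fell in KO against WT after TAC and the other comparisons stayed at 0 calls. The labels do not say that the numbers mark a shared animal or day, and correlations over 3 libraries a group cannot exclude it. Deviations of same-numbered libraries correlated at −0.16 to −0.04 between the TAC groups and at −0.25 to 0.12 between the sham groups. Between WT TAC and KO sham, which no single comparison sets against each other, they correlated at 0.66 for replicates 1, the 2 libraries that stood apart, and at 0.36 for replicates 3; all other same-numbered pairs lay at −0.23 to 0.10. In the TAC and the sham groups 0 of 6 and 1 of 6 libraries, in that order, correlated best with their own number.

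The precision is limited by 3 libraries a group and by the 2 libraries that stood apart. Counts were deep for tested members, except Cox6b2 with 6 to 36 counts a library, where no difference was detectable at this depth.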
